A study of Arabidopsis thaliana with 12 samples.

Results

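Flowers of the Arabidopsis thaliana arf6 arf8 double mutant, labelled stage 13-14, were compared with wild-type Columbia flowers of the same label, with single-copy flowers as a check. The titles do not say whether the double mutant flowers had opened. The comparison used 3 of the 12 arrays of the study, 1 for each genotype. Members were chosen by the sample titles alone. The double mutant is labelled arf6 arf8 and carries mutations in both genes. The intermediate plants are named arf6/arf6 ARF8/arf8 in the titles, while the description of the design gives ARF6/arf6 arf8/arf8. Under either reading 1 functional copy of ARF6 and ARF8 together is left, so these plants are called single-copy here. All plants were untreated and had grown for 6 weeks in long days, and nothing in the labels says how many plants gave the RNA of an array. Buds of stages 11-12, younger buds of stages 1-10 and about 0.5 cm of stem were also taken from each genotype.

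ARF6 and ARF8 encode auxin response factors, transcription factors that bind the promoters of auxin-responsive genes and are held back by Aux/IAA proteins until auxin removes these. Flowers lacking both are known to stop maturing before they open: petals and stamen filaments stay short, anthers fail to dehisce, the gynoecium stays immature, nectaries are poorly formed and jasmonate is lacking. Stages 13 and 14 are the stages at which a wild-type flower opens, sheds pollen, makes nectar and scent and is fertilised. No probe set is assigned to ARF6 or ARF8 in the annotation used here, so the transcripts of the mutated genes were not analysed here.

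The values are signals on a linear scale, 1 for each probe set and array, and differences are given as log2 of the ratio of (signal + 50), arf6 arf8 over wild-type unless stated. The added 50 understates differences of dim probe sets. With 1 array for each genotype there are no replicates, no standard deviation and no test between the 3 arrays themselves. A probe set was counted as higher or lower when the ratio reached 2 and the brighter array had a signal of 200 or more. That filter admits a gene through the array in which it is high, so counts are a description. Flowers were profiled whole, and fewer cells of a type cannot be told apart from less RNA per cell. Nor can a difference between genotypes be told apart from a difference in how far the flowers had matured.

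Of 12961 probe sets bright enough, 941 (7.26%) were higher and 973 (7.51%) were lower in arf6 arf8 than in wild-type flowers at stage 13-14. The lower side held the larger ratios: 308 probe sets were lower and 111 higher by 4-fold or more, and 45 were lower and 2 higher by 16-fold or more. Among the 6897 bright probe sets of 1 gene, 458 (6.64%) were higher and 507 (7.35%) lower. These shares are the background for the counts of every gene list below. Single-copy flowers differed from wild-type at 487 (3.79%) and 525 (4.08%) of 12853 probe sets. The double mutant differed from single-copy flowers at 894 (6.83%) and 890 (6.8%) of 13083 probe sets. The single-copy array stood apart from the other 11: its ratio of GAPDH 3' to 5' signal was 0.655, against 0.922 to 1.61, and its 25S rRNA probe set had 41.5, below all others. That rRNA signal was 147 in the arf6 arf8 and 68.8 in the wild-type array of stage 13-14, and the part of these differences in the results was not tested.

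**Figure D1:**
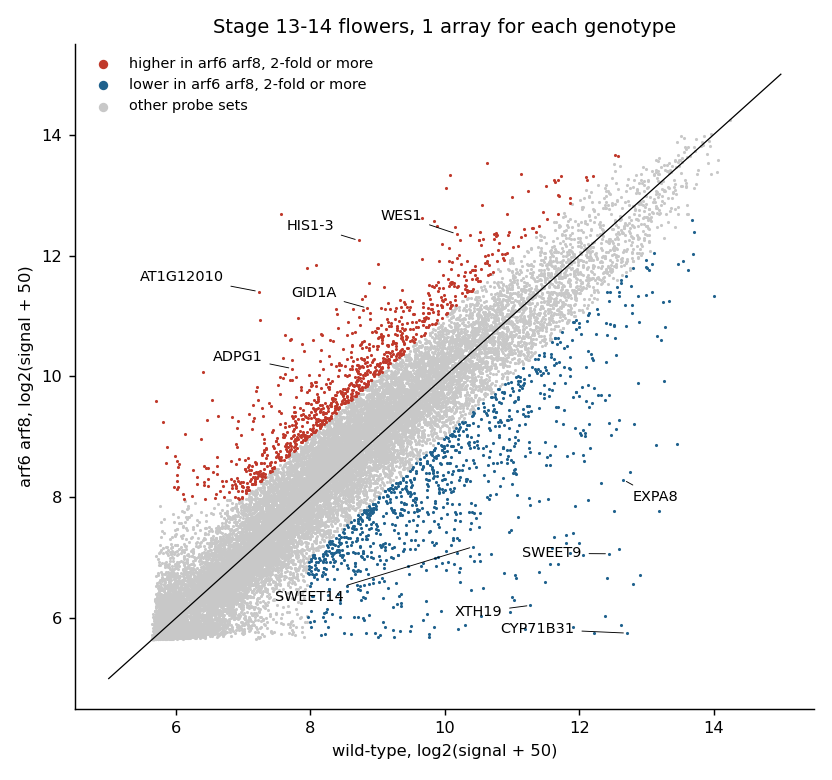
Each point is a probe set, with log2(signal + 50) in the arf6 arf8 array on the vertical axis and in the wild-type array on the horizontal axis, both of stage 13-14 flowers. The 973 probe sets lower in arf6 arf8 (blue) spread farther from the diagonal than the 941 higher ones (red), and CYP71B31 and SWEET9 lie far below it.

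A linear model over the 8 arf6 arf8 and wild-type arrays of the 4 tissues (limma, tissue, genotype and a genotype by stage 13-14 term) took its spread from the other 3 tissues, with 2 residual degrees of freedom. After Benjamini-Hochberg adjustment it called 0 of 17647 probe sets for the stage 13-14 difference, the smallest adjusted p being 0.112, while 3025 had an unadjusted p under 0.05. It also called 0 for the departure of the stage 13-14 difference from that of the other 3 tissues, with a smallest adjusted p of 0.435 and 1166 unadjusted. Without the stage 11-12 arrays the 2 counts were 363 and 39, without the stage 1-10 arrays 66 and 0, and with all 12 arrays 300 and 0. All adjusted p-values here come from this limma fit, and they measure the spread between tissues, not between plants.

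Nectar and scent genes stood among the lowest ratios. SWEET9 (AT2G39060), the sucrose exporter that nectaries need to secrete nectar, had a signal of 83.9 in arf6 arf8 flowers, against 5201 in single-copy and 5520.5 in wild-type flowers. Its log2 ratio was -5.38, or 41.6-fold lower, with an adjusted p of 0.16. CYP71B31 (AT3G53300), a cytochrome P450 that oxidises the floral volatile linalool, had 3.9 in arf6 arf8, 3029.8 in single-copy and 6655 in wild-type flowers. At a log2 ratio of -6.96 it was the lowest of all bright probe sets of 1 gene. For SWEET9 the single-copy and wild-type signals lay together, whereas for CYP71B31 single-copy flowers lay between, -1.12 log2 units from wild-type.

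Terpene synthases make the hydrocarbon skeletons of floral scent. AT5G44630 (TPS11) had 102 in arf6 arf8, 3190.2 in single-copy and 3512 in wild-type flowers, a log2 ratio of -4.55. AT3G25810 (TPS24) had 19.0 in arf6 arf8, 204 in single-copy and 1949 in wild-type flowers, a log2 ratio of -4.86. TPS24 was graded over the 3 genotypes, with single-copy flowers also -2.97 log2 units from wild-type, whereas TPS11 was about level in single-copy and wild-type flowers. Of 3 volatile ester and methyltransferase genes, JMT, which makes methyl jasmonate, was lower at 132 in arf6 arf8, 1446 in single-copy and 917 in wild-type flowers. CHAT, an acetyltransferase of the leaf alcohol volatile, had a log2 ratio of 0.57, and BSMT1, a methyltransferase of benzoate and salicylate, had -0.66. Neither passed the 2-fold limit, and 7.35% of all bright probe sets of 1 gene were lower.

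The CYP71B family did not point one way. Of 18 listed members, 13 reached a signal of 100 in some array and 10 were bright enough at stage 13-14. Of the bright ones 3 were lower and 3 higher, beside 7.35% and 6.64% of all bright probe sets of 1 gene. Besides CYP71B31, CYP71B27 had 55.9 in arf6 arf8, 249 in single-copy and 660 in wild-type flowers, and CYP71B38 had 30.8 in arf6 arf8, 302 in single-copy and 489.7 in wild-type flowers. On the other side CYP71B23 had 666 in arf6 arf8, 46.5 in single-copy and 105 in wild-type flowers, a log2 ratio of 2.21. CYP71B26 (2.11) and CYP71B6 (1.66) were higher too.

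SWEET proteins carry sugars out of cells down a gradient, and all 16 listed SWEET genes were kept, which means a signal of at least 100 in some array. At stage 13-14, 13 were bright enough, 7 were lower and 1 higher, where 7.35% and 6.64% of all bright probe sets of 1 gene were. The list's median log2 ratio was -0.34, beside 0.07 over all kept probe sets. SWEET14 and SWEET13, sucrose transporters of anthers that also carry gibberellin, both belonged to the lower group. SWEET14 had 95.2 in arf6 arf8, 2477 in single-copy and 1324 in wild-type flowers, a log2 ratio of -3.24. SWEET13 had 429 in arf6 arf8, 2453 in single-copy and 1637 in wild-type flowers, a log2 ratio of -1.82. SAG29 (SWEET15), known from senescing leaves and seeds, had 298 in arf6 arf8, 1422 in single-copy and 1650.5 in wild-type flowers. SWEET3 (-1.46), SWEET7 (-1.31) and SWEET4 (-1.16) were lower by less.

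SWEET10 was the exception, with 2939.7 in arf6 arf8 and 1036 in wild-type flowers. Its single-copy signal of 3119 lay with the double mutant, so the sign turned when single-copy flowers were the reference (-0.08). SWEET11, a phloem sucrose exporter, and SWEET1, a glucose transporter, had log2 ratios of 0.75 and 0.25 and stayed within 2-fold. Summed over the 16 probe sets, the SWEET signal was 20551 in arf6 arf8, 30890 in single-copy and 26382 in wild-type flowers.

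**Figure D2:**
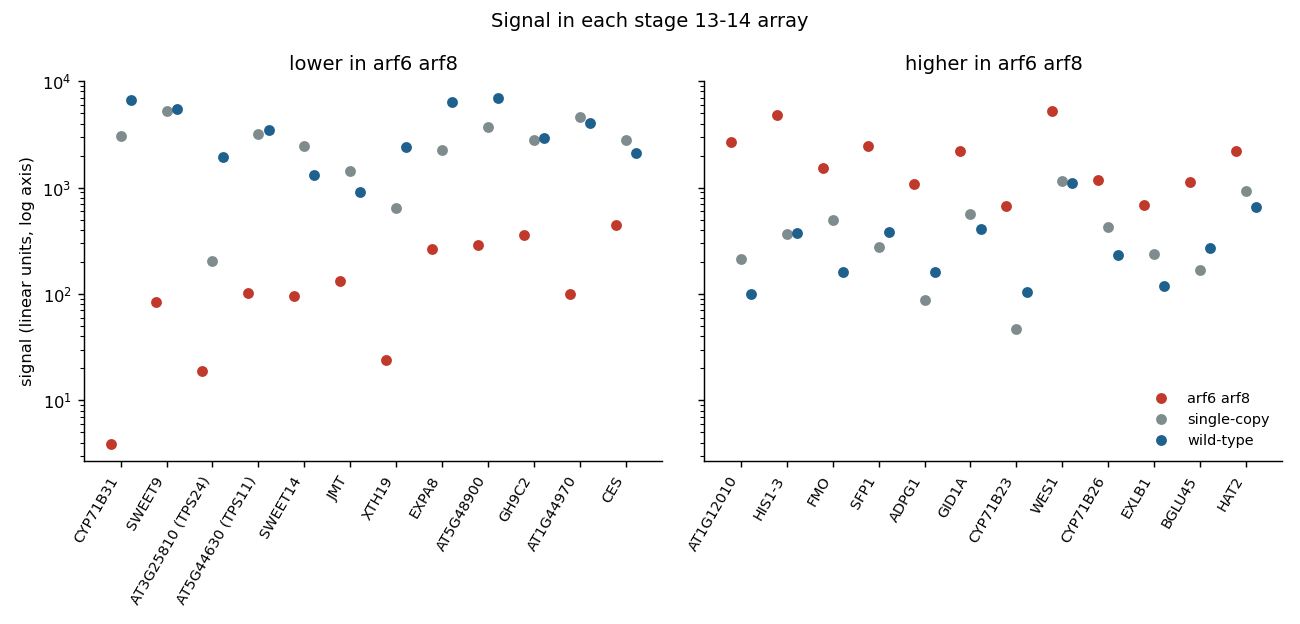
Signals (log axis) of 12 genes lower and 12 genes higher in arf6 arf8 are shown for the single array of each genotype at stage 13-14. In the left panel the arf6 arf8 point lies below both other genotypes for every gene, while on the right it exceeds both; for TPS24, XTH19 and FMO the single-copy point stands well apart from wild-type.

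Of 17 sugar storage genes and other sugar carriers, all kept and 14 bright, 3 were higher and 0 lower, where 6.64% of all bright probe sets of 1 gene were higher, and the median was 0.35. SFP1, a sugar-porter family member, had 2446 in arf6 arf8, 274 in single-copy and 384 in wild-type flowers, a log2 ratio of 2.52. ATSPS4F, a sucrose phosphate synthase, had 1002 in arf6 arf8, 498 in single-copy and 377.5 in wild-type flowers. TMT2, which loads monosaccharides into the vacuole, had 640.1 in arf6 arf8 and 256 in wild-type flowers, but 693 in single-copy flowers, above the double mutant. With single-copy flowers as the reference the list's median was -0.0037.

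Many genes that loosen and extend the cell wall were lower. Expansins loosen the contacts between wall polymers so that cells can stretch. Of 19 listed, 16 were kept and 9 were bright, with a median of -1.02. Of the bright ones 6 were lower and 1 higher, beside 7.35% and 6.64% of all bright probe sets of 1 gene. EXPA8 had 263 in arf6 arf8, 2274 in single-copy and 6398 in wild-type flowers, a log2 ratio of -4.36 or 20.6-fold lower (adjusted p = 0.115). The single-copy signal of EXPA8 lay between the other genotypes, as did that of EXLA1, an expansin-like gene with 543 in arf6 arf8, 1032 in single-copy and 2287 in wild-type flowers. EXLA2 (-1.57), EXPA15 (-1.38), EXPB3 (-1.18) and EXPA9 (-1.12) completed the lower members. EXLB1 alone went the other way, with 679 in arf6 arf8, 238 in single-copy and 119.8 in wild-type flowers. The summed expansin signal was 5262 in arf6 arf8, 11815 in single-copy and 16371 in wild-type flowers.

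XTH enzymes cut and rejoin xyloglucan, the glycan that tethers cellulose. Of 10 listed xyloglucan genes, 7 were kept and 6 were bright, with a median of -1.72. The bright ones held 4 lower and 1 higher, beside 7.35% and 6.64% of all bright probe sets of 1 gene. XTH19 had 24.1 in arf6 arf8, 644 in single-copy and 2428 in wild-type flowers, a log2 ratio of -5.06 (adjusted p = 0.112). XTH33 had 78.8 in arf6 arf8, 117 in single-copy and 427 in wild-type flowers, and XTH16 285 in arf6 arf8, 634 in single-copy and 1054 in wild-type flowers. In these 3 genes the single-copy signal lay between arf6 arf8 and wild-type. XTH29 was also lower (-1.19), while EXGT-A3 had 5707 in arf6 arf8, 2781 in single-copy and 2651 in wild-type flowers. The summed signal of the list was 7714 in arf6 arf8, 5544 in single-copy and 7889 in wild-type flowers, and EXGT-A3 supplied most of the first sum.

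GH9 enzymes are endoglucanases that act on wall glucans. Of 15 listed, 12 were kept and 7 were bright. Of these 7, 6 were lower and 0 higher, beside 7.35% and 6.64% of all bright probe sets of 1 gene. GH9C2 had 356 in arf6 arf8, 2777 in single-copy and 2902 in wild-type flowers, a log2 ratio of -2.86. GH9B11 had 141.5 in arf6 arf8, 782 in single-copy and 1287.5 in wild-type flowers, a log2 ratio of -2.80 (adjusted p = 0.112). The ratios of GH9B8 (-2.41), GH9B13 (-1.81), GH9A4 (-1.62) and GH9B7 (-1.05) lay nearer 0. For all 6 the single-copy signal was nearer to wild-type than to arf6 arf8, and the summed GH9 signal was 3327 in arf6 arf8, 11762 in single-copy and 11310 in wild-type flowers.

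Wall synthesis and modification genes followed in part, where 7.35% of all bright probe sets of 1 gene were lower and 6.64% higher. Of 12 bright TBL genes, a family that acetylates wall polysaccharides, 4 were lower and 0 higher. TBL36 had 200.2 in arf6 arf8, 2043 in single-copy and 994 in wild-type flowers. Of 7 bright CSL genes, 3 were lower and 0 higher: CSLC04 and CSLC5 of the xyloglucan backbone family, at -1.68 and -1.07, and CSLA01 of the glucomannan family. CSLA01 had 191 in arf6 arf8, 2165 in single-copy and 621 in wild-type flowers. EXO, a growth gene that responds to brassinosteroid, had 330.4 in arf6 arf8, 1298 in single-copy and 1898 in wild-type flowers, and SKU5, which steers directional growth, had a log2 ratio of -1.06.

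Pectin genes split. The pectate lyase AT5G48900 had 292 in arf6 arf8, 3697 in single-copy and 6902 in wild-type flowers, a log2 ratio of -4.35. AT1G70720, of the pectin methylesterase inhibitor family, had 68.8 in arf6 arf8, 1730.5 in single-copy and 2972 in wild-type flowers. Both were far lower in the double mutant than in either other genotype. Of 8 listed pectin enzymes, 5 were bright, with 3 higher and 1 lower, beside 6.64% and 7.35% of all bright 1-gene probe sets. The pectin methylesterases PMEPCRF and PME61, which remove methyl groups from pectin, were higher by 1.51 and 1.44 log2 units, and ATPMEPCRB was lower (-1.87). ADPG1, a polygalacturonase needed for anther and fruit dehiscence, had 1069.7 in arf6 arf8, 86.9 in single-copy and 162.5 in wild-type flowers.

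Class III peroxidases oxidise phenolics and proteins in the wall. AT1G44970 had 101 in arf6 arf8, 4559.7 in single-copy and 4039.8 in wild-type flowers. AT4G11290 had 28.3 in arf6 arf8, 1249 in single-copy and 790.2 in wild-type flowers. Both were lower in the double mutant, whereas PRXR1 was higher at 10170 in arf6 arf8, 6513.5 in single-copy and 3350.5 in wild-type flowers. AT5G64120, of the same family, had 119 in arf6 arf8, 79.1 in single-copy and 639.6 in wild-type flowers, the wild-type array alone being high. AT5G11420, a DUF642 wall protein, had 183 in arf6 arf8, 1399.9 in single-copy and 3856 in wild-type flowers.

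**Figure D3:**
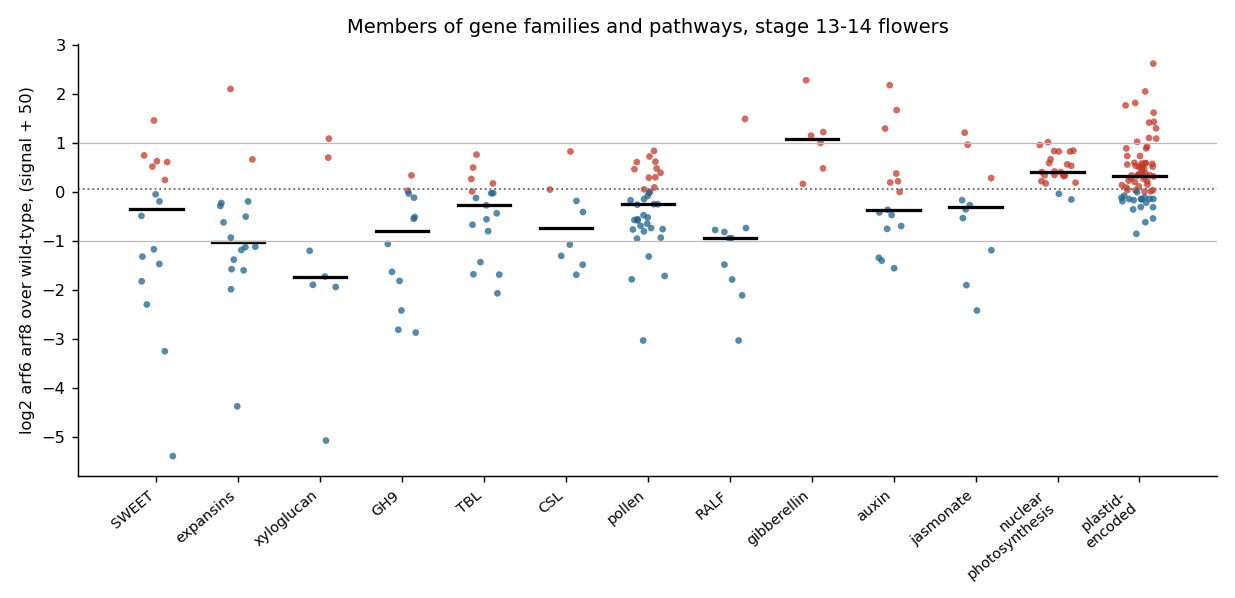
Each point is a kept member of a gene list, placed by its log2 ratio of (signal + 50), arf6 arf8 over wild-type, at stage 13-14; black bars are list medians, grey lines mark 2-fold and the dotted line is the median of all kept probe sets (0.07). Expansin, xyloglucan, GH9, CSL and RALF-like medians lie below -0.7, and the gibberellin median lies at 1.08.

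Pollen transcripts were lower as a sum but mostly within 2-fold. Among all bright probe sets of 1 gene, 7.35% were lower and 6.64% higher. The 36 kept pollen and pollen tube probe sets, of which 18 were bright, held 3 lower and 0 higher genes, with a median of -0.25. Of the 36, 24 had a log2 ratio below 0 and 12 above. A shorter list of 13 pollen genes, written first, had a median of -0.64, with 9 below 0 and 4 above. The summed signal of the 36 was 19518 in arf6 arf8, 31822 in single-copy and 32992 in wild-type flowers. At stage 11-12 it was 26390 in arf6 arf8, 22587 in single-copy and 24771 in wild-type flowers. What part the lower pollen sum has in the other lists was not tested. RALFL25, a RALF-like peptide of pollen, had 483 in arf6 arf8, 2304 in single-copy and 4282.5 in wild-type flowers, a log2 ratio of -3.02. This bright gene alone holds a sizeable part of the lower pollen sum, and it is counted again among the RALF-like peptides. ACT12, a pollen actin, had 84.9 in arf6 arf8, 279.5 in single-copy and 391 in wild-type flowers, and PIPK11, a phosphoinositide kinase of pollen tubes, had 243 in arf6 arf8, 744 in single-copy and 678 in wild-type flowers. MGH3, a histone of sperm cells and a defining pollen marker, had 11.1 in arf6 arf8, 180 in single-copy and 159 in wild-type flowers. Its log2 ratio of -1.78 was past 2-fold, but MGH3 was not counted as lower because both arrays were below the brightness limit. With single-copy flowers as the reference its log2 ratio was -1.91. ANX1 and ANX2, receptor kinases that keep pollen tubes intact, had log2 ratios of -0.24 and -0.76.

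Anther and tapetum genes were mostly dim in these flowers, 3 of 7 having a signal under 50 in each genotype. Only 2 of the 7 were bright enough for a call, and none was past 2-fold. The tapetum regulator AMS had 18.8 in arf6 arf8, 32.9 in single-copy and 29.4 in wild-type flowers. Their summed signal was 988 in arf6 arf8, 1382 in single-copy and 1017 in wild-type flowers, while at stage 11-12 it was 1366 in arf6 arf8, 1312 in single-copy and 4613.5 in wild-type flowers. RALF-like peptides act as ligands of receptor kinases at the cell surface. Of 10 kept and 9 bright, 3 were lower and 1 higher, beside 7.35% and 6.64% of all bright probe sets of 1 gene. The RALF-like median was -0.94. Besides RALFL25, RALFL22 had 372 in arf6 arf8, 876.5 in single-copy and 1761.5 in wild-type flowers, and RALFL24 had 473 in arf6 arf8, 528 in single-copy and 1745 in wild-type flowers. RALFL28 was higher, with 1121 in arf6 arf8, 337 in single-copy and 366 in wild-type flowers.

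Pistil and ovule genes past 2-fold did not share a direction. CES, a bHLH factor of the transmitting tract, had 444 in arf6 arf8, 2819 in single-copy and 2136 in wild-type flowers, a log2 ratio of -2.15. FER, the receptor kinase with which the ovule receives the pollen tube, had 2207 in arf6 arf8, 1978 in single-copy and 947 in wild-type flowers. FER was thus as high in single-copy as in arf6 arf8 flowers. AGL80, a MADS-box factor of the central cell, was lower at 77.7 in arf6 arf8, 224 in single-copy and 228.5 in wild-type flowers. Of 15 kept egg, central cell and ovule probe sets, 9 were bright, 11 had a log2 ratio above 0 and 4 below. Among the bright ones 1 was higher and 1 lower, beside 6.64% and 7.35% of all bright 1-gene probe sets. The median was 0.39, or -0.18 with single-copy flowers as the reference. The summed signal of the list was 5963 in arf6 arf8, 6444 in single-copy and 4137 in wild-type flowers.

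Of 23 organ regulators, all kept and 15 bright, 3 were lower and 0 higher, beside 7.35% and 6.64% of all bright 1-gene probe sets. Besides CES the lower genes were YAB5, a YABBY factor of organ polarity, and BPEp, a bHLH factor that limits petal size. YAB5 had 95.9 in arf6 arf8, 201 in single-copy and 377 in wild-type flowers. BPEp had 552 in arf6 arf8, 979 in single-copy and 1327 in wild-type flowers, so that single-copy flowers lay between the other genotypes for both. The list's median was 0.05 and turned to -0.01 when each array was divided by its median. With single-copy flowers as the reference it was -0.10.

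Jasmonate is needed for stamens to ripen and flowers to open. Of 10 jasmonate genes kept, 6 were bright, with JMT and JRG21 lower and MYC3 higher. The shares over all bright probe sets of 1 gene were 7.35% lower and 6.64% higher. JRG21, a jasmonate-regulated oxygenase, had 120.1 in arf6 arf8, 142 in single-copy and 583 in wild-type flowers. Here the single-copy array lay with the double mutant. MYC3, a bHLH factor of jasmonate response, had 819 in arf6 arf8, 404 in single-copy and 325 in wild-type flowers. The thionin THI2.1, a jasmonate-inducible defence gene, had a log2 ratio of -0.35 and stayed within 2-fold.

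Auxin genes went both ways: of 15 kept, 8 had a log2 ratio below 0, and the median was -0.36. Of 6 bright ones 3 were higher and 1 lower, beside 6.64% and 7.35% of all bright probe sets of 1 gene. WES1 (GH3.5), which joins auxin to amino acids, had 5195 in arf6 arf8, 1143 in single-copy and 1107 in wild-type flowers, a log2 ratio of 2.18. GH3.3, a related enzyme, had 2071 in arf6 arf8, 782 in single-copy and 813 in wild-type flowers. HAT2, an auxin-inducible homeodomain factor, had 2225 in arf6 arf8, 922 in single-copy and 664 in wild-type flowers. All 3 stood above both other genotypes. GH3.17, another auxin conjugating enzyme, went the other way with 555 in arf6 arf8, 1432 in single-copy and 1722 in wild-type flowers. The Aux/IAA gene IAA18 had a log2 ratio of 0.38.

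The gibberellin genes all had log2 ratios above 0. Of 6 kept, 5 were bright and 4 were higher, where 6.64% of all bright probe sets of 1 gene were. The list's median was 1.08. GID1A, GID1B and GID1C encode the gibberellin receptors. GID1A had 2190.3 in arf6 arf8, 569 in single-copy and 411 in wild-type flowers, a log2 ratio of 2.28 (adjusted p = 0.193). GID1B had 412 in arf6 arf8, 143 in single-copy and 148 in wild-type flowers, and GID1C 383 in arf6 arf8, 136 in single-copy and 166 in wild-type flowers. The double mutant thus stood alone for the 3 receptors. SPY, a repressor of gibberellin signalling, had 874 in arf6 arf8 and 365 in wild-type flowers, but 905 in single-copy flowers. Its sign turned with single-copy flowers as the reference (-0.05).

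The highest ratio among bright probe sets of 1 gene was that of AT1G12010, an ACC oxidase of ethylene synthesis. It had 2659 in arf6 arf8, 213 in single-copy and 100.4 in wild-type flowers, a log2 ratio of 4.17. HIS1-3, a linker histone induced by drought, had 4816.5 in arf6 arf8, 364 in single-copy and 371 in wild-type flowers, a log2 ratio of 3.53. FMO, a flavin monooxygenase, had 1516 in arf6 arf8, 492.5 in single-copy and 160 in wild-type flowers. AT1G16950 (3619 in arf6 arf8, 104 in single-copy and 221 in wild-type flowers) and AT2G05540 (10246 in arf6 arf8, 558 in single-copy and 1031 in wild-type flowers) have no described function in the tables used. In all of these the double mutant lay above both other genotypes by 2-fold or more.

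Cold and water deficit genes differed both ways. Of 10 bright members 3 were higher and 2 lower, beside 6.64% and 7.35% of all bright probe sets of 1 gene. Besides HIS1-3, COR27 and XERICO were higher, the second being a RING protein that raises abscisic acid, at 2157 in arf6 arf8, 946.5 in single-copy and 839 in wild-type flowers. COR47, a dehydrin, was lower at 4116 in arf6 arf8, 10975 in single-copy and 13230 in wild-type flowers. Of 7 bright genes of senescence and vacuolar processing, DELTA-VPE, a protease of seed coat cell death, was higher, and SAG29 and WRKY6, a senescence-associated regulator, were lower. DELTA-VPE had 1193 in arf6 arf8, 1473.5 in single-copy and 502 in wild-type flowers. UF3GT, a xylosyltransferase of anthocyanin synthesis, was the 1 lower gene among 6 flavonoid genes, at 43.6 in arf6 arf8, 63.3 in single-copy and 396 in wild-type flowers. For UF3GT the wild-type array alone was high.

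Few nuclear photosynthesis genes were past 2-fold. Of 23 nuclear photosynthesis genes, all bright, 21 had a log2 ratio above 0, as had 55.2% of all kept probe sets, 1 was higher by 2-fold and the median was 0.41. PIFI, which regulates electron flow in the chloroplast, had 2080.4 in arf6 arf8, 1211 in single-copy and 1000.3 in wild-type flowers. Of 69 plastid-encoded genes listed, 68 were kept and 54 were bright, and 18 of the 68 had a log2 ratio below 0. The bright ones held 10 higher and 0 lower, beside 6.64% and 7.35% of all bright probe sets of 1 gene. The photosystem I core gene psaB had 8492 in arf6 arf8, 3105.5 in single-copy and 2371 in wild-type flowers, and psaA had 2324 in arf6 arf8, 847 in single-copy and 522 in wild-type flowers. The photosystem II genes psbC (1.62) and psbD (1.77) were higher too, while atpB, an ATP synthase subunit, had 14305 in arf6 arf8, 11962 in single-copy and 14309 in wild-type flowers.

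The plastid genes depended on the check. Their median was 0.34 against wild-type and 0.66 against single-copy flowers, and single-copy flowers had a median of -0.42 relative to wild-type. The 25S rRNA signal had the same order, at 147 in arf6 arf8, 68.8 in wild-type and 41.5 in single-copy flowers. Any link between that signal and the plastid values was not tested. For atpA the single-copy signal of 1555 exceeded the 861 of arf6 arf8 and the 98.2 of wild-type flowers. The same held for psbI, with 662 in arf6 arf8, 1627.5 in single-copy and 214 in wild-type flowers. Autophagy genes, none past 2-fold of 10, likewise had a median of 0.02 against wild-type and 0.96 against single-copy flowers.

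The stage 11-12 arrays, which share no array with stage 13-14, show how much of the pattern was already present in the younger buds. Of the 941 higher probe sets, 405 were also higher at stage 11-12, 43.0% of the stage 13-14 set and 64.2% of the 631 (4.95%) of stage 11-12. Of the 973 lower ones, 387 were also lower, 39.8% of the stage 13-14 set and 55.7% of the 695 (5.45%). At stage 1-10 the double mutant differed at 188 (1.48%) and 174 (1.37%) probe sets, and in stem at 447 (3.53%) and 285 (2.25%). SWEET9 had log2 ratios of -0.51 at stage 1-10, -3.81 at stage 11-12 and -5.38 at stage 13-14. CYP71B31 had -0.01, -4.11 and -6.96 over the same stages. EXPA8, in contrast, was lower in stem too, at -2.98.

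**Figure D4:**
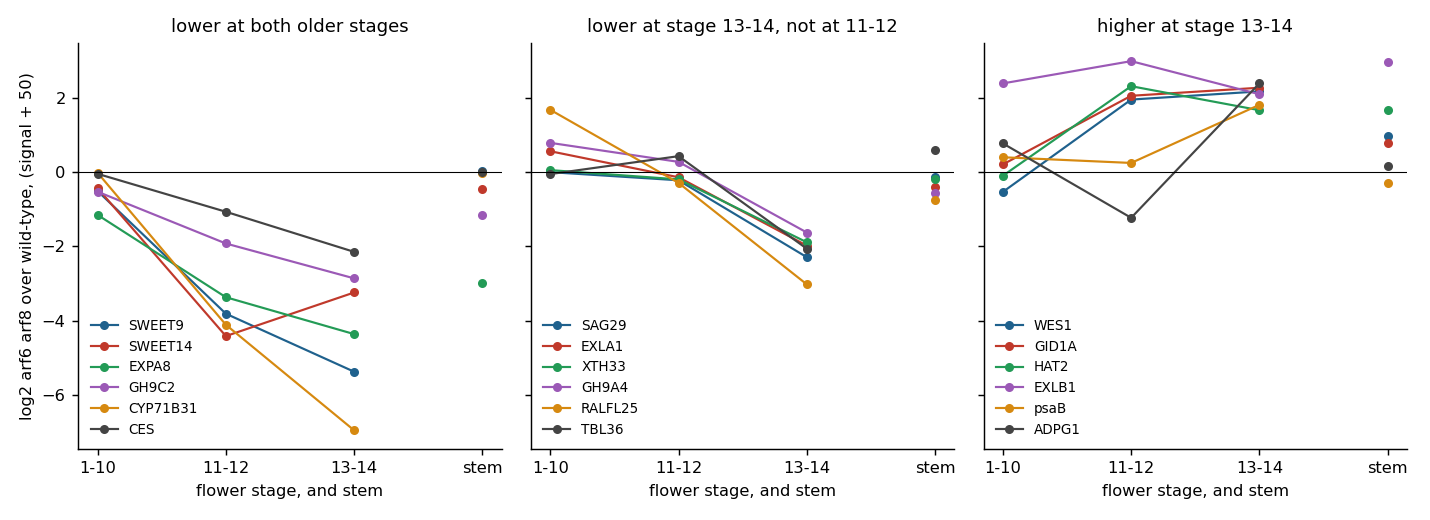
Log2 ratios of (signal + 50), arf6 arf8 over wild-type, are plotted for 18 genes at the 3 flower stages (lines) and in stem (separate points). Genes of the left panel are lower at stages 11-12 and 13-14, those of the middle panel lie near 0 at stage 11-12 and lower at stage 13-14, and in the right panel ADPG1 has opposite signs at these stages.

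Of the lower probe sets, 251 (25.8%) had a log2 ratio within 0.5 of 0 at stage 11-12, and of the higher ones 125 (13.3%) had. The same share over all bright probe sets was not computed, so these counts do not set apart differences particular to stage 13-14. SAG29 was one of the 251, at -0.22 at stage 11-12 and -2.29 at stage 13-14. Its wild-type signal was 306 at stage 11-12 and 1650.5 at stage 13-14, while the arf6 arf8 signal was 256.5 and 298. TBL36, XTH33, EXLA1, GH9A4 and RALFL25 were also lower at stage 13-14, with stage 11-12 log2 ratios between -0.29 and 0.43. The departure of SAG29 from the other tissues was -2.17 log2 units (SE 0.31, adjusted p = 0.435), and that of TBL36 was -2.39 (SE 0.37, adjusted p = 0.435). Neither passed the threshold. Among higher genes, psaB had 0.25 at stage 11-12 and 1.82 at stage 13-14, with an adjusted p of 0.488 for the departure. ADPG1 had opposite signs, -1.23 at stage 11-12 and 2.40 at stage 13-14. WES1 and GID1A were already higher at stage 11-12, at 1.96 and 2.06.

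**Figure D5:**
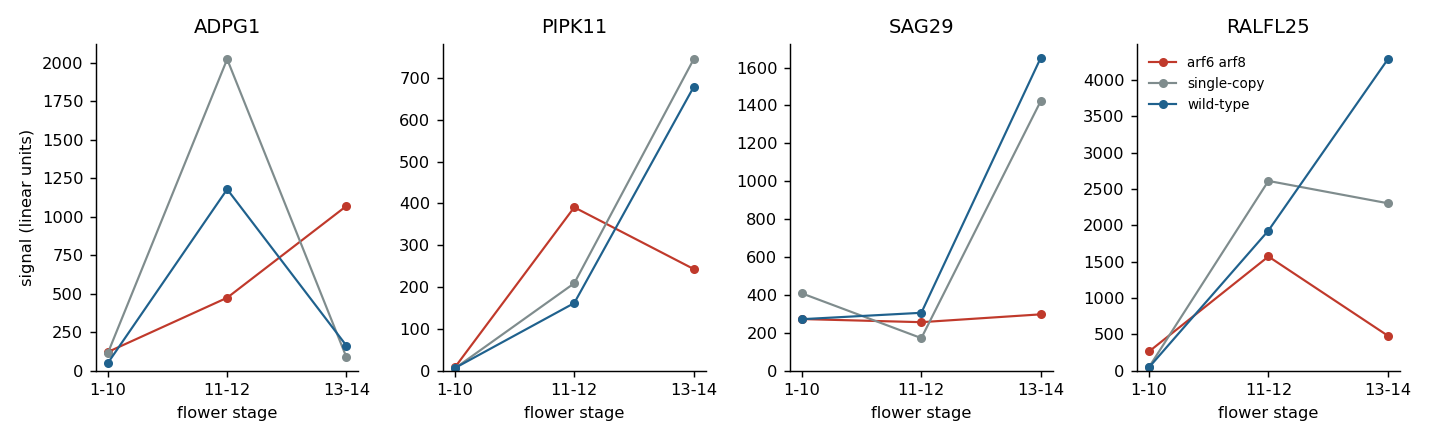
Signals of ADPG1, PIPK11, SAG29 and RALFL25 are plotted over the 3 flower stages, 1 array for each point. In wild-type and single-copy flowers ADPG1 peaks at stage 11-12 and SAG29 and PIPK11 are highest at stage 13-14; in arf6 arf8 flowers ADPG1 is highest at stage 13-14 and SAG29 stays between 256.5 and 298.

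Most members of the cell division, stem wall, and tubulin, actin and GAPDH lists stayed within 2-fold. Of 13 bright mitosis and replication genes, 1 was lower and 0 higher, beside 7.35% and 6.64% of all bright 1-gene probe sets. Their median was -0.32, and the lower gene was the histone HTB2 (-1.03). Of 6 bright genes of a list of tubulins, an actin and GAPDH, 1 was lower, the actin ACT11, at 414 in arf6 arf8, 1815 in single-copy and 1373 in wild-type flowers. That list's median was -0.48, with 6 of 7 members below 0 and GAPC2 the 1 above it (0.10). Of 5 kept members of the stem wall list, 3 were below 0, among them the directional growth gene SKU5 (-1.06), and 2 were above, GUT1 (0.18) and GUT2 (0.21). Their median was -0.33, and their summed signal was 1349 in arf6 arf8, 2702 in single-copy and 2014 in wild-type flowers.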

How the data were processed

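Total RNA of flowers and stems was hybridised to oligonucleotide arrays as biotin-labelled cRNA, 1 array for each genotype and tissue. The authors made the deposited signal intensity values with MAS5, per the submitters' processing notes, with a version not given in the sources used here. On every array the trimmed mean lay between 500.03 and 500.04, so each had been scaled to one global target, which hides any overall difference in RNA amount. Median signals were 191.85 to 235.3 over the 12 arrays. No detection calls were used here, and having 1 array for each group limits the precision.

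Of 22810 probe sets, 64 controls were left out, and 17647 with a signal of 100 or more in at least 1 array were kept. Names came from the platform's probe table, which assigns 13513 probe sets to 1 gene and 503 to several. No genome positions or sequences are printed.

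Ratios used a pseudocount of 50 before log2 and calls needed a 2-fold ratio with 200 or more in the brighter array. The R 4.3.3 package limma 3.58.1 (linear fits, moderated with a mean trend, two-sided, Benjamini-Hochberg over kept probe sets, threshold 0.05) was tested on simulated data first. Genes were named by a rule: the 15 highest and 15 lowest ratios, up to 8 in each direction past the departure test (none passed), and up to 6 members past the fold limit in each list. Other list members within 2-fold were chosen after their values were seen. Of 50 lists written first, 24 had 3 or more kept members. A further 32 were drawn up with the probe table's gene names in view. Some genes stand in several lists. Members and lists were chosen with earlier results of these data known. The alternatives changed the pseudocount, the brightness and fold limits, the scaling, the reference, the filter, the arrays and tissues in the fit and the variance trend.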

Additional observations from a re-analysis of the deposited data

Results flagged for a closer look

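ADPG1 and PIPK11 differed from wild-type in opposite directions at stages 13-14 and 11-12, past 2-fold at both. They are the 2 such probe sets of 1 gene among 6 in all. ADPG1, the dehiscence polygalacturonase, had a log2 ratio of 2.40 at stage 13-14 and -1.23 at stage 11-12. Its signals at stage 11-12 were 474 in arf6 arf8, 2022 in single-copy and 1178 in wild-type flowers. PIPK11, the pollen tube kinase, had a log2 ratio of -1.31 at stage 13-14 and 1.06 at stage 11-12. Its signals at stage 11-12 were 391 in arf6 arf8, 209 in single-copy and 162 in wild-type flowers. The difference between the 2 stages was not tested directly. In the limma fit the departure of stage 13-14 from the mean of the other 3 tissues had an adjusted p of 0.648 for ADPG1 and 0.689 for PIPK11.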

How the results depend on the processing

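The counts of 941 higher and 973 lower probe sets became 490 and 639 with a pseudocount of 200 and 111 and 308 at 4-fold. They stayed within 1.5 times with a pseudocount of 16, other brightness limits, quantile or median scaling and single-copy flowers as the reference. For the stage 13-14 difference limma called 0 probe sets, but 24 with a pseudocount of 200, 300 with all 12 arrays, 66 without stage 1-10 flowers and 363 without stage 11-12 flowers. For the departure from the other tissues it called 0, but 39 without stage 11-12 flowers. The other settings of both tests called 0. With single-copy flowers as the reference, 106 gene ratios and list medians were classed as the same, 77 as moved and 8 as turned. The 8 were psbI (-1.24), atpA (-0.82), AT5G64120 (0.39), SWEET10 (-0.0841), TMT2 (-0.11), DELTA-VPE (-0.29), SPY (-0.0474) and LCR68 (0.14). Some list medians classed as moved also changed sign. Among them were jasmonate (-0.31 to 0.17), pectin enzymes (0.29 to -0.21), subtilases (0.19 to -0.73) and glucosinolate (-0.40 to 0.18). The expansin, xyloglucan, GH9 and gibberellin medians kept their sign. The causes were not tested. No other scaling or pseudocount turned a gene named by the rule. Genes named outside the rule, such as atpB, were not run under these settings. No paired analysis was possible because the labels carry no replicate numbers and each group has 1 array, beyond the pairing of genotypes by tissue that the limma fit already holds. A promoter motif search was not run.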

Other observations

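Further families were measured in stage 13-14 flowers, with 1 array for each genotype and no test. Among all bright probe sets of 1 gene, 6.64% were higher and 7.35% lower. Counts of 1 or 2 in a family are not read further. Serine carboxypeptidase-like genes, a family of proteases and acyltransferases, gave 2 higher and 5 lower of 18 bright members. scpl47 had 62.1 in arf6 arf8, 375 in single-copy and 402 in wild-type flowers, and scpl31 had 1121.5 in arf6 arf8, 344.5 in single-copy and 294 in wild-type flowers. The list's median of 0.02 turned to -0.05 with median scaling, -0.03 with quantile scaling and -0.13 against single-copy flowers. Of 6 bright subtilases, secreted proteases, 3 were lower and 1 was higher. SBT4.13 had 102 in arf6 arf8, 621 in single-copy and 439.5 in wild-type flowers, while ATSBT5.2 had 659 in arf6 arf8, 279 in single-copy and 180.1 in wild-type flowers. BGLU45 and BGLU46, glucosidases that free lignin precursors from their sugar, were the 2 higher genes among 10 bright BGLU genes. BGLU45 had 1133 in arf6 arf8, 169 in single-copy and 268 in wild-type flowers.

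Of 4 bright defensin-like genes, small secreted cysteine-rich peptides, 3 were lower and 0 higher. LCR72 had 781 in arf6 arf8, 2911 in single-copy and 5544 in wild-type flowers. LCR68 had 2156 in arf6 arf8, 1950.4 in single-copy and 4884 in wild-type flowers, the single-copy array lying with the double mutant. Among 7 bright glucosinolate genes BCAT4, which starts the lengthening of methionine, was higher at 621 in arf6 arf8, 241 in single-copy and 139 in wild-type flowers. JAL23, a jacalin-related lectin, was lower (-2.54). Of 15 bright UGT glycosyltransferases 2 were higher and 1 lower, beside 6.64% and 7.35% of all bright probe sets of 1 gene. The lower one, UGT85A3, had 81.1 in arf6 arf8, 1328 in single-copy and 1282 in wild-type flowers. No tetraspanin was past 2-fold, of 7 bright.

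AT1G72290, of the Kunitz-type chlorophyll-binding proteins, was among the 15 lowest ratios with 6.6 in arf6 arf8, 3183 in single-copy and 2293 in wild-type flowers. It was already lower at stage 11-12 (-6.32) and stage 1-10 (-3.09). A further 6 of the 15 lowest have no described function in the tables used, AT1G30795, AT1G70270, AT5G45950, AT1G76240, AT1G75300 and AT4G12530, with log2 ratios from -4.89 to -4.40. AT5G45950 had 424 in arf6 arf8, 10101 in single-copy and 11196 in wild-type flowers. On the higher side ZW9 had 1221 in arf6 arf8, 83.6 in single-copy and 143 in wild-type flowers, and AT2G20670 had 6238 in arf6 arf8, 699 in single-copy and 759 in wild-type flowers. AT3G45680 differed from these in that its single-copy signal of 352 lay near the 479 of arf6 arf8 and far from the 20.0 of wild-type flowers.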
